A study of Mus musculus with 6 samples.

Results

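The secreted and intracellular Wnt inhibitors described here are 10 genes of inguinal fat: the secreted frizzled-related genes Sfrp1, Sfrp2, Sfrp4, Sfrp5 and Frzb, the secreted antagonists Dkk2 and Wif1, the membrane protein gene Apcdd1, and Dact1 and Dact2, whose products work inside the cell. They were chosen by gene symbol, as every probe to which the array annotation gave 1 of these symbols and no other. Each of the 10 had 1 probe, of 33012 probes on the array and of 13840 genes that a probe named. Of the 10, 6 had a value on all 6 arrays and entered the test, and 4 (Sfrp1, Frzb, Dact1 and Dkk2) were blank on at least 1 array. The arrays compared male C57BL/6J mice that differed in weight gain on the same saturated-fat diet, begun at 8 weeks of age and continued for 4 weeks. Inguinal fat RNA from 8 high gainers formed 1 pool and RNA from 8 low gainers the other. Both groups were of the same strain and sex, carried no genetic change named in the sources used here, were housed 1 to a cage when the diet was given, and shared the diet, so that weight gain is the difference by which they were selected. Each pool was run on 3 arrays, which are repeat measurements of 1 pool. The p-values, standard errors and intervals below therefore rest on technical spread alone and say nothing of the variation among mice.

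Wnt ligands bind Frizzled receptors and Lrp co-receptors, which stabilizes beta-catenin and lets it act with TCF and LEF factors on target genes. Active Wnt signaling is known to hold preadipocytes back from becoming fat cells, and its secreted inhibitors are found in adipose tissue, where Sfrp5 has been studied in fat cell growth. Secreted frizzled-related proteins and Wif1 bind the ligands outside the cell, Dickkopf proteins such as Dkk2 bind the Lrp co-receptors, Apcdd1 acts at the cell membrane, and the Dact proteins bind Dishevelled in the cytoplasm.

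Sfrp5 and Dact2 rose most among the Wnt inhibitors tested, Apcdd1 and Sfrp4 rose by less than 2-fold, and Sfrp2 and Wif1 did not pass the test. A probe was called where limma gave a Benjamini-Hochberg adjusted p under 0.01, over 15821 probes measured on every array, and the pools differed by at least 1.5-fold. By this rule 4 of the 6 tested inhibitors were higher in high gainers, where 2.50% of all tested probes were called higher. None was lower (0 of 6, also 0 at an unadjusted p under 0.05 and 0 by the methods' own test, an analysis of variance), where 3.99% of all tested probes were called lower. The median log2 ratio of high over low gainers was 0.74 over the 6 tested inhibitors and 0.03 over all tested probes. The 6 are those with a value everywhere and do not stand for the 10, and the study itself singled out Sfrp5 and members of the Dact and Dkk families with these arrays in view, so that these counts are no independent evidence of a direction. In RNA of whole tissue, fewer cells of a type and less RNA per cell cannot be told apart.

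**Figure D1:**
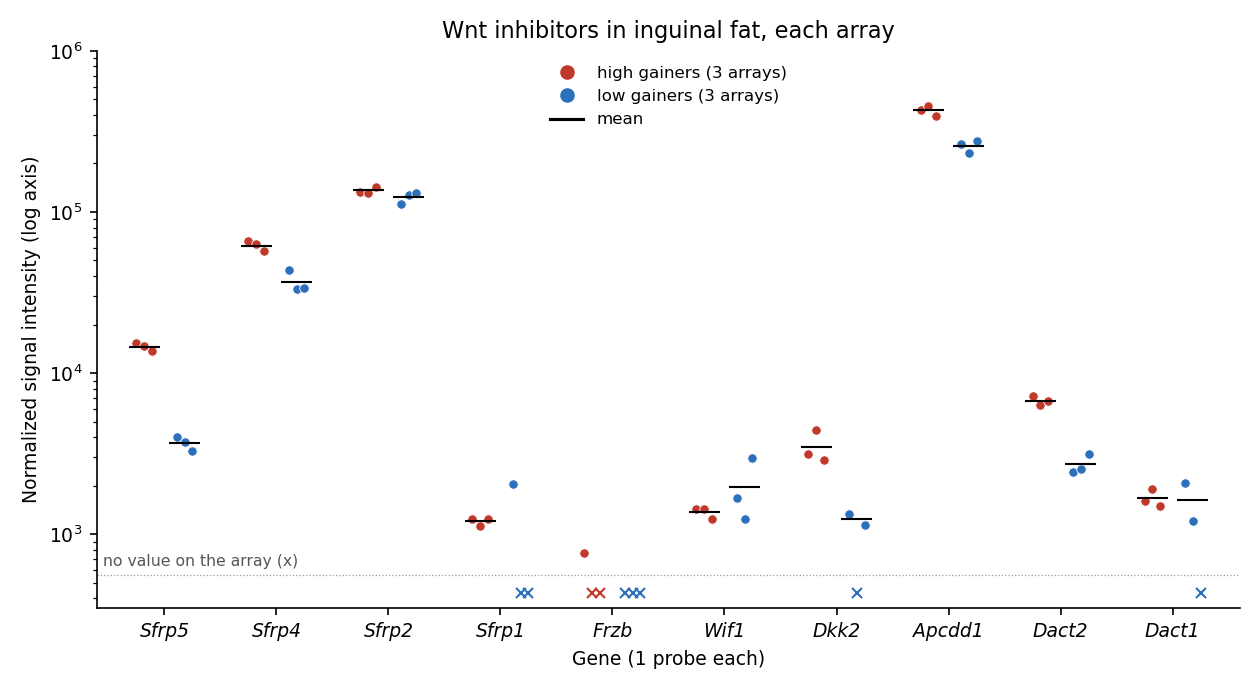
Signal intensity of the 10 Wnt inhibitor probes on each of the 6 arrays, on a logarithmic axis, with 1 point per array (red for high gainers, blue for low gainers), pool means as short lines and a cross under the dotted line for an array without a value. The 3 arrays of high gainers lie above the 3 of low gainers for Sfrp5, Dact2, Sfrp4 and Apcdd1, and overlap with them for Sfrp2 and Wif1.

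Sfrp5, which encodes a secreted protein that binds Wnt ligands through a Frizzled-like domain, showed the largest difference of the family. Its signal was 15326, 14719 and 13739 on the arrays of high gainers and 4021, 3734 and 3294 on those of low gainers. The lowest array of high gainers lay 3.42-fold above the highest of low gainers. The means were 14595 ± 801 and 3683 ± 366 (SD, n = 3 arrays each), which gave a log2 ratio of 1.99 (SE 0.11, limma adjusted p = 0.000174), or 3.97-fold with a 95% interval of 3.33 to 4.74. Only 8 of the 15821 tested probes had a larger ratio in favor of high gainers. The probe is nonetheless a dim one, with a mean at the 32.1 percentile of the tested probes. Counted from the brightest probe of each array, it stood at places 7914, 8065 and 8327 in high gainers and at 13290, 13568 and 14136 in low gainers. The signal of a probe also depends on how well it hybridizes, so that places on the array order probes and not transcripts. With any 1 array left out, the log2 ratio of Sfrp5 stayed between 1.91 and 2.06 and the call was kept. Beyond the arrays, the study measured Sfrp5 by quantitative PCR in individual mice. It reports higher levels in high gainers in several fat depots, and expression mostly in the adipocyte fraction.

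Sfrp4, a further ligand-binding member of the family, differed less and sat higher on the arrays. Its signal was 65574, 62837 and 56919 in high gainers and 43818, 33331 and 33663 in low gainers, with no overlap between the pools but a lowest high gainer array only 1.30-fold above the brightest low gainer array. The pool means of 61777 ± 4424 and 36937 ± 5961 (SD, n = 3 arrays each) differed by a log2 ratio of 0.75 (SE 0.13, limma adjusted p = 0.00976), which is 1.68-fold with a 95% interval of 1.35 to 2.09. The adjusted p is close to the threshold of 0.01. The call was kept in 1 of the 6 fits with an array left out, the one without low gainers array 1 (adjusted p = 0.00489). It was lost without high gainers array 1, 2 or 3 (adjusted p = 0.0476, 0.0372 and 0.0199) and without low gainers array 2 or 3 (0.0355 and 0.0411).

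Sfrp2 belongs to the same family, and its probe was among the brighter ones, at the 88.1 percentile. Its signal was 132493, 131591 and 143686 in high gainers against 111755, 127898 and 131990 in low gainers, and the highest low gainer array exceeded the lowest high gainer array. The log2 ratio was 0.14 (SE 0.10, limma adjusted p = 0.427), with a 95% interval from -0.11 to 0.38, and it turned to -0.03 when the ratios were centered on the adipocyte markers. The upper end of that interval lies below the lower end of the interval of Sfrp5, a log2 ratio of 1.73. Sfrp1 and Frzb complete the family and were not measured on every array. Sfrp1 had values of 1240, 1133 and 1247 in high gainers and 2054 on low gainers array 1, and was blank on the other low gainers arrays. Values on 3 arrays of high gainers and 1 of low gainers were found for 215 of all probes (0.651%). Frzb had a single value of 761 on high gainers array 1, a pattern shared by 1514 probes (4.59%) and not read as a difference.

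Among the other secreted antagonists, Dkk2 was brighter in high gainers and partly blank in low gainers. Its signal was 3158, 4417 and 2883 in high gainers and 1328 and 1145 on arrays 1 and 3 of low gainers, with no value on array 2. Every measured high gainer array lay above both measured low gainer arrays. Because of the blank, Dkk2 was left out of the test above. In a fit of the 17810 probes with at least 2 values in each pool, its log2 ratio was 1.47 (SE 0.21, limma adjusted p = 0.00815), or 2.78-fold, and it was called higher, as were 1.79% of the probes in that fit. The inhibitors called there were also 4, with Dkk2 in and Sfrp4 out (adjusted p = 0.0144). A value on all 3 arrays of high gainers and 2 of low gainers occurred for 574 probes (1.74%). Wif1 went the other way in its mean without passing the test. It gave 1434, 1438 and 1246 in high gainers and 1680, 1240 and 2977 in low gainers, with overlapping pools and the dimmest mean of the tested inhibitors, at the 1.5 percentile. The log2 ratio of -0.42 (SE 0.29, limma adjusted p = 0.373, 95% interval from -1.10 to 0.25) became -0.08 without low gainers array 3.

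The promoter sequences of Sfrp5 and Dkk2 are shown because they are the secreted inhibitors with the largest ratios on the arrays. They were taken from the RefSeq table of build GRCm38.p6, which held 7 of the 10 genes (Sfrp1, Sfrp4 and Apcdd1 were not matched), and end at the base before the annotated gene. CpG dinucleotides, the sites of DNA methylation, are in capitals, and each sequence runs 5′ to 3′ on the strand of its gene, minus for Sfrp5 at chr19:42202253-42202502 and plus for Dkk2 at chr3:132085042-132085265.
Sfrp5: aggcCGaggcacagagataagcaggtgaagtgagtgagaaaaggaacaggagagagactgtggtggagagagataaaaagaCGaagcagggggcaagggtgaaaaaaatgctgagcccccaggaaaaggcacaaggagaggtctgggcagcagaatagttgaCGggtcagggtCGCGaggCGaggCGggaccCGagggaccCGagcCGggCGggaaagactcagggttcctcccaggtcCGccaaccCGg
Dkk2: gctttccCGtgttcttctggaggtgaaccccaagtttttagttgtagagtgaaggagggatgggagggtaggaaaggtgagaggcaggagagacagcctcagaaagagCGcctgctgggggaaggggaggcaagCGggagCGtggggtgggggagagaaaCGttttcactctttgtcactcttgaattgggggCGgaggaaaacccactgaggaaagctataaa
In the 250 bases before the start, Sfrp5 had 13 CpG and Dkk2 had 7, of which 6 lie in the 224 printed bases, the rest of its window being inside the annotated gene. These counts stand against a median of 6 over 32851 windows of that length, and most of those of Sfrp5 lie in the part nearest the gene. The other matched inhibitors had 16 (Sfrp2 and Frzb), 18 (Dact2), 21 (Wif1) and 41 (Dact1). The windows of Sfrp2 and Dact2 lie wholly inside the annotated gene, before a start that is not its outermost one. The letters of TCF and LEF factor motifs (CTTTG followed by 2 bases that are each A or T, on either strand) were in 0 of the 7 windows and in 14.8% of all windows, which says only that these letters are not in these stretches.

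Inside the cell, Dact2 changed and Dact1 showed no measurable difference at this precision. Dact2, a Dishevelled-binding antagonist, gave 7232, 6316 and 6732 in high gainers and 2436, 2543 and 3158 in low gainers. The lowest high gainer array was 2.0-fold above the highest low gainer array. The means of 6760 ± 459 and 2712 ± 390 (SD, n = 3 arrays each) gave a log2 ratio of 1.32 (SE 0.13, limma adjusted p = 0.000667), or 2.50-fold with a 95% interval of 2.04 to 3.07. It ranked 49th from the top of all tested ratios on a dim probe, at the 18.8 percentile. With any 1 array left out the ratio stayed between 1.25 and 1.44 and was called, with a largest adjusted p of 0.00515 without high gainers array 1. Dact1, its paralog, gave 1603, 1917 and 1495 in high gainers and 2081 and 1204 on arrays 1 and 2 of low gainers, with array 3 blank. The high gainer values lay between both low gainer values, and in the fit with at least 2 values in each pool the log2 ratio was 0.07 (SE 0.25, limma adjusted p = 0.889).

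Apcdd1, a membrane glycoprotein that binds Wnt ligands and Lrp co-receptors, had the brightest probe of the 10 inhibitors, at the 95.2 percentile. Its signal was 429726, 457382 and 392877 in high gainers and 263405, 232733 and 274757 in low gainers. The pools did not overlap, and the nearest arrays were 1.43-fold apart. The means of 426662 ± 32361 and 256965 ± 21740 (SD, n = 3 arrays each) gave a log2 ratio of 0.73 (SE 0.11, limma adjusted p = 0.00459), or 1.66-fold with a 95% interval of 1.39 to 1.98. In the fits with 1 array left out, the ratio was called without high gainers array 3 (adjusted p = 0.0094) and missed the threshold in the other 5. Those gave adjusted p = 0.0267 and 0.021 without high gainers arrays 1 and 2, and 0.0133, 0.0177 and 0.0141 without low gainers arrays 1, 2 and 3. Arrays that did not overlap are common in these data, since for 20.3% of all tested probes the dimmest high gainer array exceeded the brightest low gainer array, and for 16.3% the reverse held. Among the 6 tested inhibitors the counts were 4 and 0.

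**Figure D2:**
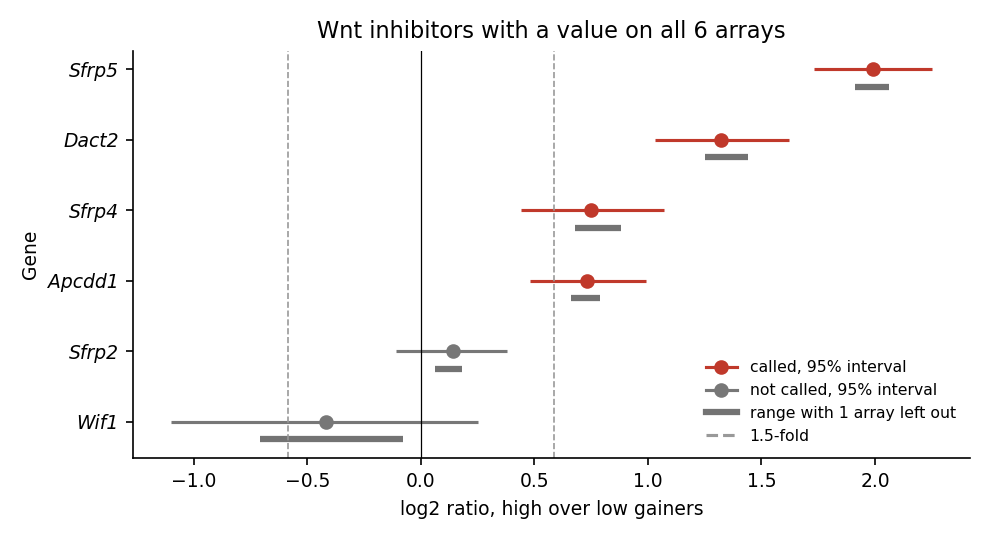
Log2 ratio of high over low gainers for the 6 Wnt inhibitors with a value on every array, as points with 95% intervals from limma (thin lines, red where called), the range with 1 array left out (thick grey bars) and the 1.5-fold threshold (dashed). The intervals of Sfrp5 (1.73 to 2.25), Dact2 (1.03 to 1.62), Sfrp4 (0.44 to 1.07) and Apcdd1 (0.48 to 0.99) lie above 0, and those of Sfrp2 and Wif1 span 0. All intervals rest on repeat arrays of 1 pool each.

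Genes whose values followed Sfrp5 over the 6 arrays were sought among 8882 named and tested probes by the mean absolute difference of centered log2 values. The nearest were Lipf, a gastric lipase (0.0979), Bpifb6 (0.146), Fam20c, a kinase of secreted proteins (0.161), Cyp8b1, an enzyme of bile acid synthesis (0.166), and G6pc, glucose-6-phosphatase (0.180). Their signals were 3.91, 4.36, 3.39, 3.15 and 3.25-fold higher in high gainers. Of the inhibitors, Dact2 came nearest to Sfrp5 (0.333, 19th in order), followed by Sfrp4 (0.619, 198th) and Apcdd1 (0.629, 220th). Sfrp2 (0.927) and Wif1 (1.21) were far down the order. With 2 pools such likeness mainly reflects a similar ratio between them and is given as a description.

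The rest of the pathway showed few calls. Of 97 further Wnt pathway genes listed, 49 were tested, of which 1 was higher (2.04%) and 2 were lower (4.08%) in high gainers, shares near the 2.50% and 3.99% of all tested probes. The median log2 ratio of the 49 was 0.2, against 0.03 over all tested probes. None of the 6 tested ligands was called (3 were higher at an unadjusted p under 0.05 in limma, and 2 were called by the methods' own test at an unadjusted p of 0.01), with a median log2 ratio of 0.36. Of the 12 receptors and co-receptors, 1 was called (5 were higher at an unadjusted p under 0.05 in limma, and 2 by the methods' own test). The largest ratio, that of Fzd6 (0.8, limma adjusted p = 0.0161), was not called. The called gene, the Frizzled receptor Fzd2, rose from 7251 ± 605 to 11654 ± 636 (SD, n = 3 arrays each), a log2 ratio of 0.69 (limma adjusted p = 0.00486). Its call was kept in 1 of the 6 fits with an array left out, without low gainers array 1, and the adjusted p ran from 0.0113 to 0.0303 in the others. The median of that list was 0.33, and the study had taken up Frizzled receptors from these arrays. It describes the changes in these receptors as small. It reports that repeatable changes in them were not established by quantitative PCR of individual mice and several fat depots. None of the 10 transducers was called (2 higher at an unadjusted p under 0.05, 0 by the methods' own test), with a median of 0.06.

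The further Wnt inhibitors outside these 10 that could be tested gave no call. Of 26 genes listed, 21 had a named probe and 11 were tested, none of which was called in limma (an unadjusted p under 0.05 was reached by 2 that were higher and 3 that were lower, and 0 were called by the methods' own test). Their log2 ratios ran from -0.41 to 0.37 with a median of -0.13. The tested genes were Axin1, Apc, Ctnnbip1, Cby1, Tle2, Tle3, Tle4, Tle5 and the secreted Sostdc1 (0.37), Igfbp4 (0.27) and Notum (-0.27). Dkk1, Dkk3, Dkk4, Cer1 and Sost had blanks and were not tested. This list is thus not matched in kind to the inhibitors described here. Nkd1 and Nkd2, inhibitors that bind Dishevelled, had no named probe and were not analysed here. The study calls Nkd1 Naked1 and reports it as strongly increased in high gainers, so that the absence of calls does not cover it. Among the 10 transcription factors and targets, Lef1, a nuclear partner of beta-catenin, fell from 16433 ± 1870 in low gainers to 5978 ± 966 in high gainers (SD, n = 3 arrays each), a log2 ratio of -1.46 (limma adjusted p = 0.000818). Myc, a growth regulator and Wnt target, fell from 28024 ± 790 to 15794 ± 1582 (log2 ratio -0.83, limma adjusted p = 0.00221). Lef1 is also expressed in T lymphocytes, whose markers were lower in high gainers (given below), and their part in its ratio was not tested here. The study found no Lef1 in retroperitoneal or epididymal fat and proposes that lymphocytes trapped in inguinal fat express it. It did not keep Myc as a candidate after analysis of other fat depots. Lef1 was called with any 1 array left out. Myc missed the threshold without high gainers array 1 or low gainers array 2 or 3 (adjusted p = 0.0148, 0.0108 and 0.0106). The median of the 10 was 0.11.

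**Figure D3:**
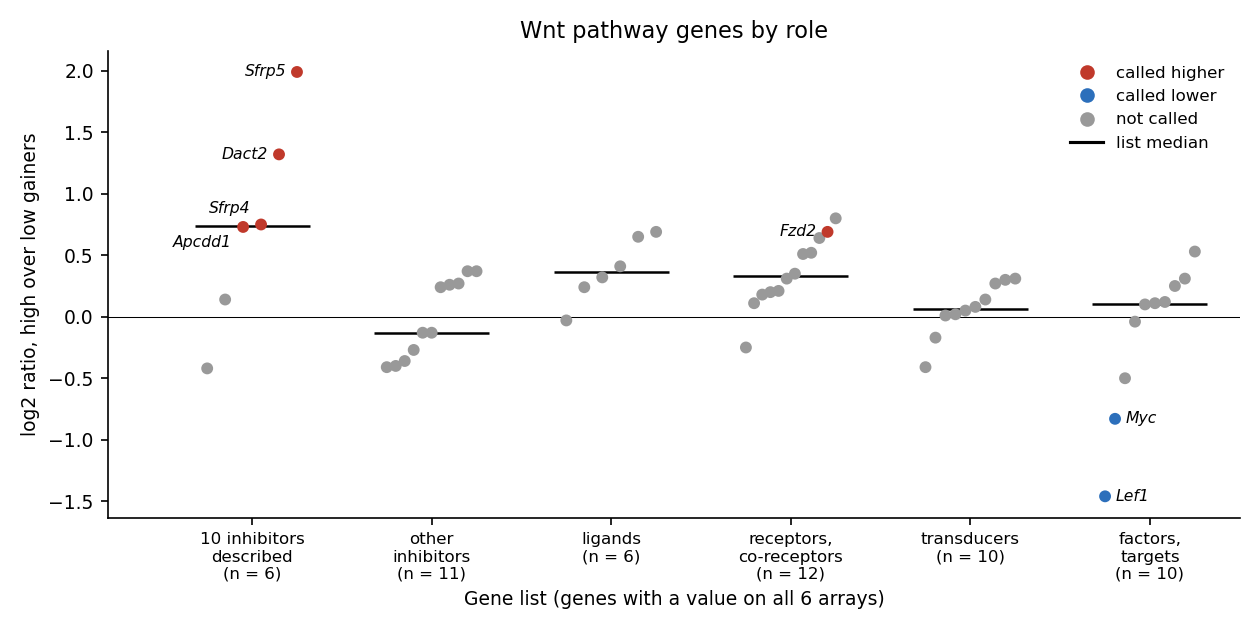
Log2 ratio of high over low gainers for the tested genes of the Wnt pathway by role, with 1 point per gene (red called higher, blue called lower, grey not called) and a line at the median of each role. The 6 tested inhibitors described here have a median of 0.74, the other inhibitors one of -0.13 and no called gene.

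Inguinal fat was checked by cell type markers. The adipocyte genes Fabp4, a fatty acid carrier (865468 against 750927), and Pck1, phosphoenolpyruvate carboxykinase (1524697 against 1449179), were bright in both pools and neither was called. Of 13 tested adipocyte markers 2 were called higher, Lep and Plin4, and their summed signal ran from 9438238 to 10494851 in high gainers and from 9135381 to 9749327 in low gainers. The median log2 ratio of these markers was 0.16, and with all ratios centered on it Sfrp5 and Dact2 were called while Sfrp4 (0.59, limma adjusted p = 0.0234) and Apcdd1 (0.57, 0.0124) were not. The stromal progenitors, cells that can form adipocytes, had 12 tested markers, and 9 of them reached an unadjusted p under 0.05, 8 in favor of high gainers and 1 of low gainers. How many of all tested probes reached that p was not counted, so such counts, here and for the other lists, are descriptions only. By the full rule Pi16 was higher (0.99, limma adjusted p = 0.000779) and Thy1 lower (-0.74), while Cd34 (0.58, limma adjusted p = 0.00441) and Mfap5 (0.52, 0.00964) missed the fold threshold. The list had a median of 0.41 and summed signals of 4156399 to 4643299 and 3570899 to 4230490. The part of these cells in the ratios of the inhibitors was not tested.

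Smooth muscle and pericyte markers (0 of 10 called, 6 higher at an unadjusted p under 0.05 and 1 by the methods' own test) had a summed signal of 574127 to 586104 in high gainers and 466865 to 478197 in low gainers, with no overlap. Endothelial markers (0 of 8 called, 4 higher at an unadjusted p under 0.05 and 0 by the methods' own test) had 655048 to 722560 and 577578 to 592112. Markers of other tissues were lower in high gainers, with 5 of 5 tested B lymphocyte, 4 of 6 T lymphocyte, 5 of 6 skeletal muscle and 3 of 4 glandular epithelium markers called. The summed B lymphocyte signal was 88392 to 92929 against 301884 to 319073, the T lymphocyte signal 77978 to 91882 against 236813 to 272120, the muscle signal 1351798 to 1452420 against 2048226 to 2469402 and the epithelial signal 13572 to 18107 against 47439 to 55085. None of the 6 tested macrophage markers was called in limma (1 was higher at an unadjusted p under 0.05, and 0 were called by the methods' own test), and their summed signals overlapped, at 1349006 to 1460256 against 1432942 to 1624856. The part of these cell types in the ratios of the Wnt inhibitors was not tested.

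**Figure D4:**
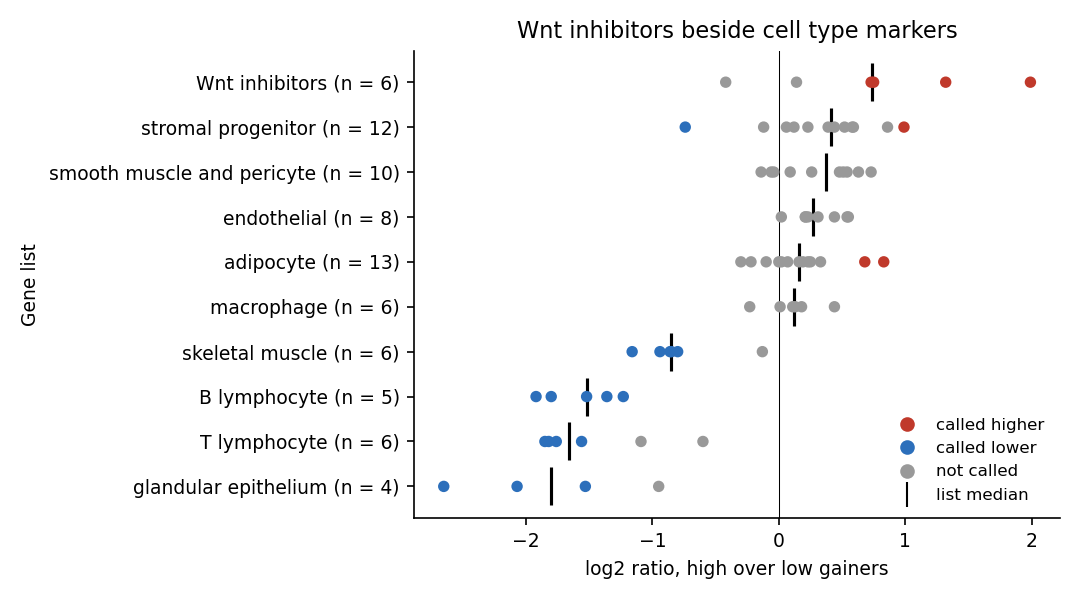
Log2 ratio of high over low gainers for the 6 tested Wnt inhibitors (top) and the tested markers of each cell type, with 1 point per gene (red called higher, blue called lower, grey not called) and a line at each median. The lymphocyte, muscle and epithelial markers have medians of -0.85 or lower, and the adipocyte and stromal markers medians of 0.16 and 0.41.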

How the data were processed

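RNA of inguinal fat was labeled by the authors and hybridized to mouse arrays with 1 color each, read by chemiluminescence. The authors deposited linear signal intensities after quantile normalization, with unmeasured cells left blank. The methods describe a filter that uses the signal to noise ratio and a quality flag, and the sources used here do not tie each blank to it. Between 18018 and 20605 of 33012 probes had a value per array, and 3 arrays a pool limit the precision. Within pools r was 0.9875 to 0.9936 across tested probes, and between pools 0.9719 to 0.9797.

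The deposited intensities were log2 transformed, with no offset, for the 15821 probes without a blank, and the pools were compared with limma 3.58.1 in R 4.3.3 (lmFit and eBayes). Calls needed an adjusted p (Benjamini-Hochberg) under 0.01 with at least a 1.5-fold difference. The procedure was tested on simulated data. Each gene was represented by its brightest tested probe. Of the probes, 14411 carried 1 symbol in the annotation, 247 carried several and 18354 carried none. Members and gene lists were chosen with earlier results of these data known. All members, the called genes of each pathway role and the 5 genes nearest to Sfrp5 were named. Deviations from the pool means correlated at r = 0.038, -0.11 and 0.27 between arrays of the same number, so no pairing was used. Alternatives changed the normalization, centering, offset, filters, thresholds, variance model, test, pairing and arrays used. Probe coordinates are not given, since no genome build was named for the probes.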

Additional observations from a re-analysis of the deposited data

Results flagged for a closer look

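Dkk2 had a signal of 3158, 4417 and 2883 on high gainers arrays 1, 2 and 3 and lay outside the test on all arrays because low gainers array 2 was blank. It was marked because its values exceed those of the low gainers arrays (1328 and 1145) in data that the comparison did not use. What lies behind the blank was not tested, and the fit with at least 2 values in each pool was not run with arrays left out.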

How the results depend on the processing

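Of 168 recomputed log2 ratios of the tested inhibitors and of Fzd2, Lef1 and Myc, 167 kept their direction and 35 lost the call. Alternatives that changed only the threshold, test, variance model or pairing left the ratio unchanged, so its direction could not turn there. Sfrp2 and Wif1 had no call to lose. The ratio of Sfrp2 turned to -0.03 with centering on the adipocyte markers. The count of 4 inhibitors called higher became 2 with centering on the adipocyte markers, without the dimmest 33.3% of probes (3 inhibitors tested, with Sfrp5, Dact2 and Wif1 filtered out) or with a 2-fold threshold, and 1 with the ANOVA after Benjamini-Hochberg adjustment, which kept Sfrp5. Leaving out 1 array gave 2 to 3. No inhibitor was called lower under any of the alternatives. Of the other pathway genes, the count called higher was 0 with adipocyte centering, a 2-fold threshold or the adjusted ANOVA, 2 without the dimmest probes, with an offset or with the trended robust fit, and 4 with the unadjusted ANOVA. It was 0 to 1 with an array left out. The count called lower was 1 at 2-fold, 0 with the adjusted ANOVA and 1 to 2 with an array left out, and it was 3 with adipocyte centering. Except where an alternative tests fewer probes or asks for a larger fold, the cause was not tested.

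With the array number as a replicate block, 2 inhibitors were called higher, since Sfrp4 (adjusted p = 0.0145) and Apcdd1 (0.0209) lost their calls, and 0 other pathway genes were called higher. The numbers name repeat arrays of a pool, and 3 of 6 arrays correlated best with the array of their own number.

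Array signal limits Frzb and Sfrp1, whose blanks allow no bound. Dact1, also partly blank, had a ratio only in the fit with at least 2 values in each pool. Each pool is 1 sample of mice, so that differences between high and low gainers as animals were not testable here.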

Other observations

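Of the other Wnt pathway genes with a probe, 31 had blanks, and 14 of them had no value on any array. Values were found on more arrays of high gainers for 6 and on more arrays of low gainers for 11. Over all probes with blanks on some arrays these counts were 3198 and 3359 of 7974. Axin2, a feedback inhibitor and Wnt target, had 1 value (1594, high gainers), a pattern of 1514 probes (4.59%). Rnf43, which removes Frizzled receptors from the cell surface, had 3 values in low gainers (mean 3150) and none in high gainers. The transducer Frat2 had the same pattern (mean 1033 in low gainers), which 118 probes (0.357%) showed. Dkk3, a relative of Dkk2, had a mean of 1826 on 3 arrays of high gainers and of 1478 on 2 arrays of low gainers. These genes were named after their values were seen.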
